A study of Mus musculus with 12 samples.

Results

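The antioxidant enzymes and their regulator Nrf2 were followed here through 10 genes, taken by name from the 34245 genes of a raw count table of sorted mouse intestinal epithelium, and all 10 had a row. They are *Nfe2l2*, which encodes Nrf2, the superoxide dismutases *Sod1* and *Sod2*, catalase *Cat*, the glutathione peroxidases *Gpx1*, *Gpx2* and *Gpx4*, thioredoxin reductase *Txnrd1*, the quinone reductase *Nqo1* and haem oxygenase *Hmox1*. Poly(A)+ RNA was sequenced from 4 groups of 3 libraries each, namely sorted stem cells of the intestine (ISC) and its adult enterocytes (AE), of young and of old male C57BL/6 mice, to ask which genes change on ageing. Young mice were past early adulthood but in their first year of life, and old mice were in the third. All of them carried a knock-in of EGFP and CreERT2 at the *Lgr5* locus, and no treatment is described for either age. ISC are the GFP-high, DAPI-negative cells of crypt suspensions, so the gate follows *Lgr5* promoter activity, while AE were sorted from villi as Epcam-high cells negative for CD31, CD45 and DAPI. The AE gate is thus an epithelial gate and not one for enterocytes alone. The sources do not tie each library to a mouse, so P-values measure only the spread between these libraries.

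Superoxide dismutases turn superoxide into hydrogen peroxide, which catalase in peroxisomes and the glutathione peroxidases then reduce to water. Nrf2 is a transcription factor that Keap1 holds in the cytoplasm and hands to the proteasome; oxidants and electrophiles block this, and Nrf2 then binds antioxidant response elements with a small Maf partner and switches on genes such as *Nqo1*, *Hmox1* and *Txnrd1*. Since Nrf2 is controlled mainly as a protein, its mRNA level does not report its activity. In the gut, Gpx2 is the epithelial member of the glutathione peroxidases and is known from the proliferating crypt base.

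Library totals were between 11893817 and 110794420 counts, the latter in young AE replicate 3, and levels are given as CPM, counts scaled to a common library size, after TMM scaling in edgeR. The limit of detection was set at 3 counts or fewer in a library, which is 0.0360 to 0.327 CPM depending on the library and covers counting error only. Summed over 10 stem cell markers, levels were 6061 to 8122 CPM in young ISC, 5909 to 8370 in old ISC, 128 to 664 in young AE and 145 to 231 in old AE. Summed over 12 enterocyte markers, they were 3434 to 9211 CPM in young ISC, 1574 to 4914 in old ISC, 66515 to 87541 in young AE and 86090 to 104390 in old AE, so the markers went with the labelled cell types. AE libraries also held more goblet cell markers, with 23670 to 45835 CPM over 6 genes against 1810 to 2183 CPM in young ISC and 1391 to 1728 in old ISC. Enteroendocrine markers were at 2309 to 5657 CPM in AE and 209.7 to 639.5 CPM in ISC over 5 genes, and Paneth cell markers at 34.0 to 166 CPM in AE and 434 to 1318 CPM in ISC over 5 genes. Over 6 genes, markers of T cells and intraepithelial lymphocytes were at 15.4 to 47.4 CPM in AE. In ISC they were at 6.52 to 17.1 CPM in young and 0.801 to 2.54 CPM in old mice. The goblet and T cell sums thus did not overlap between ages in ISC, while the enteroendocrine and Paneth sums did. Of the goblet markers, *Fcgbp* and *Clca1* were lower in each old ISC library than in each young one. *Muc2*, *Tff3*, *Spdef* and *Agr2* overlapped. Of the T cell markers, *Cd3e*, *Cd8a*, *Gzma* and *Gzmb* were lower in this way, and *Ptprc* and *Cd3g* overlapped. Erythroid markers, over 5 genes, summed to 1.19 to 1.72 CPM in young and 0.178 to 0.863 CPM in old ISC. The 7 macrophage and monocyte markers summed to between 0.806 and 4.78 CPM in all libraries, with *Cd163* at 0 counts in each. In bulk RNA, fewer cells of a type and less RNA per cell cannot be told apart. The part of these other cells in the results that follow was not tested. Libraries of a group were not copies of each other, since their pairs gave a chi-square per degree of freedom of 29.0 to 239.9.

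The most plain feature of these genes was a split between ISC and AE. *Cat*, *Gpx4*, *Nfe2l2* and *Txnrd1* were higher in AE than in ISC at both ages, *Gpx2* was lower in AE at both ages, and *Sod2* stood between 66.4 and 109 CPM in the 12 libraries. No member passed the test between old and young mice, in either cell type. The plot of levels by library shows both patterns.

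**Figure D1:**
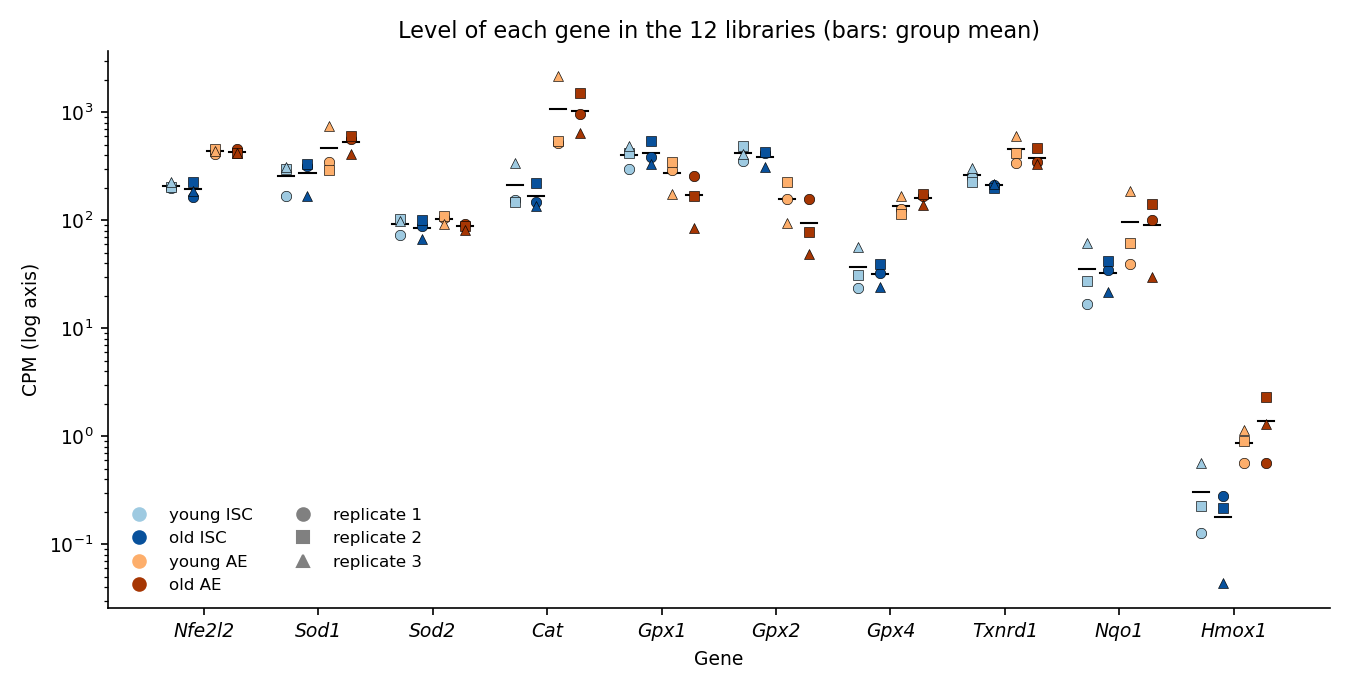
Level of each of the 10 genes in the 12 libraries, in CPM on a log axis, with colours for the 4 groups, symbols for the replicate number and black bars for the group means. AE points lie above ISC points for *Nfe2l2*, *Cat* and *Gpx4* and below them for *Gpx2*, while young and old points of a cell type overlap for most genes; *Hmox1* lies far below the other genes, with a highest value of 2.33 CPM.

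*Nfe2l2* (ENSMUSG00000015839, GRCm38, chr2:75675513-75704641, minus strand, protein coding) was at 198, 202 and 224 CPM in the 3 young ISC libraries, 166, 227 and 187 in old ISC, 413, 458 and 434 in young AE and 455, 421 and 417 in old AE. Every AE library was thus above every ISC library, and the 6 AE libraries lay close together. AE over ISC was 2.09-fold in young mice (log2 fold change 1.06, standard error or SE 0.17, FDR = 0.00114) and 2.12-fold in old mice (1.08, SE 0.18, FDR = 0.000535), where FDR is the Benjamini-Hochberg adjusted P of edgeR's quasi-likelihood test over all genes. Between ages, the log2 fold change of old over young was -0.10 in ISC (SE 0.16, FDR = 1.00) and 0.01 in AE (SE 0.15, FDR = 0.996).

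In young mice, 5 of the 10 members were called between AE and ISC at an FDR under 0.05, 4 higher and 1 lower in AE, beside 53.1% of the 16681 genes tested (27.7% higher and 25.4% lower in AE). In old mice, 9 of 10 were called, 7 higher and 2 lower in AE, beside 64.1% of 15855 genes (30% higher and 34.1% lower). The groups did not overlap for 6 members in young mice and for 8 in old mice, against 62.9% and 69.9% of all genes. The median log2 fold change of the 10 members was 0.95 in young and 0.98 in old mice, where that of all genes was 0.15 and -0.13. With so large a share of genes called, the count of called members in young mice is near the background, and what the members add lies in which of them moved and how far. Young and old comparisons use separate libraries.

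**Figure D2:**
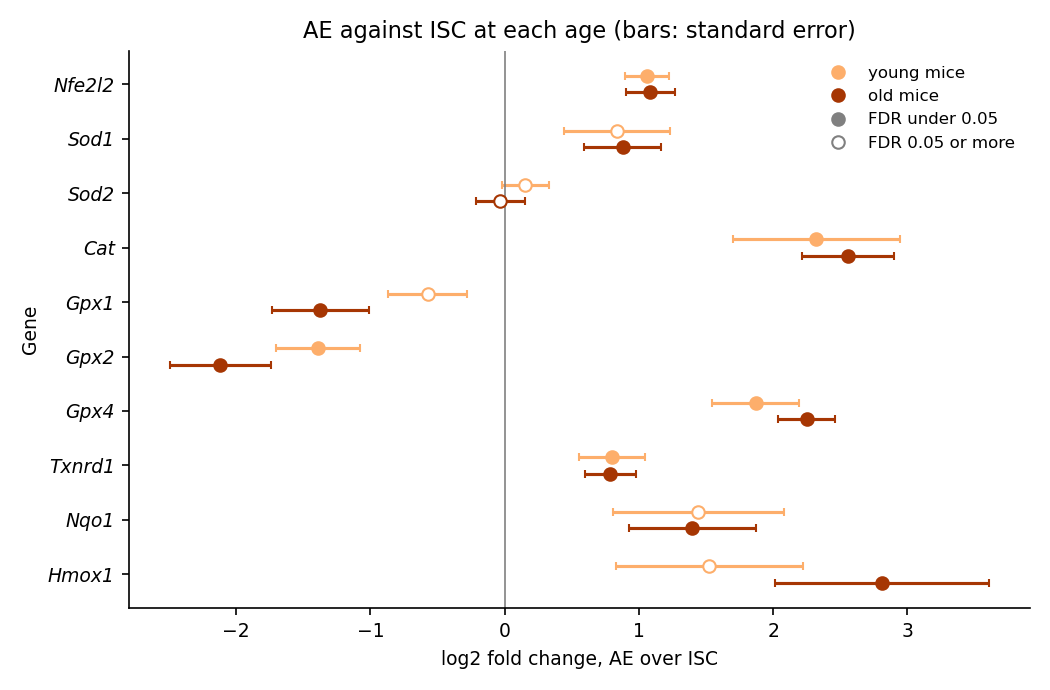
Log2 fold change of AE over ISC for each gene in young and in old mice, with bars of 1 SE; filled points passed an FDR of 0.05. *Cat*, *Gpx4* and *Hmox1* reach the largest values on the right, *Gpx2* and *Gpx1* lie on the left, and *Sod2* sits at 0.15 and -0.03.

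Of the superoxide dismutases, *Sod1* (ENSMUSG00000022982, chr16:90220742-90226322, plus strand) encodes the copper and zinc enzyme of the cytosol. It was at 166, 297 and 311 CPM in young ISC, 315, 332 and 166 in old ISC, 344, 294 and 748 in young AE and 559, 606 and 408 in old AE. Young AE and young ISC overlapped, while in old mice each AE library was above each ISC library. From ISC to AE the log2 fold change was 0.84 in young mice (SE 0.39, FDR = 0.106) and 0.88 in old mice (SE 0.29, FDR = 0.0213), so the size was alike and only the latter passed the test. In old mice the call was lost without old AE replicate 1 (FDR = 0.0565) or replicate 2 (FDR = 0.0803), and in young mice the log2 fold change was 0.23 without young AE replicate 3. *Sod2* (ENSMUSG00000006818, chr17:13007839-13018119, plus strand), the manganese enzyme of mitochondria, was at 73.4, 103 and 98.1 CPM in young ISC, 87.8, 101 and 66.4 in old ISC, 104, 109 and 93.0 in young AE and 92.6, 88.9 and 81.6 in old AE. No pair of groups of *Sod2* differed by the test, and its log2 fold change between them was 0.15 (SE 0.18, FDR = 0.483) in young and -0.03 (SE 0.18, FDR = 0.892) in old mice. Of the 50-base words of all annotated *Sod2* transcripts, 21.0% also occur in transcripts of other genes. These transcripts reach beyond the span that was counted, and the share within that span was not measured. Whether reads of *Sod2* were left out or shared when reads were counted is thus not known.

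*Cat* (ENSMUSG00000027187, chr2:103453849-103485160, minus strand) was at 153, 148 and 340.5 CPM in young ISC, 148, 221 and 135 in old ISC, 519, 543 and 2154 in young AE and 970.2, 1488 and 643 in old AE. Each AE library was above each ISC library, but the young AE libraries spread over a range in which replicate 3 stood far above the others. AE over ISC was 5.0-fold in young mice (log2 fold change 2.32, SE 0.62, FDR = 0.0140) and 5.88-fold in old mice (2.56, SE 0.34, FDR = 0.000118). Without young AE replicate 3, the value in young mice was 1.25 on the log2 scale and still passed the test, and it did not pass without young ISC replicate 1 (FDR = 0.0624) or replicate 2 (FDR = 0.0553). In ISC the highest *Cat* level was that of young ISC replicate 3, which also held the highest sum of enterocyte markers of the 6 ISC libraries (9211 CPM, against 3434 to 3802 in the other young ISC libraries). *Gpx4*, *Nqo1*, *Txnrd1* and *Hmox1* were also highest among ISC in that library, while *Nfe2l2*, *Sod1*, *Sod2*, *Gpx1* and *Gpx2* were not. The part of enterocyte RNA in this was not tested.

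The glutathione peroxidases split. *Gpx2* at both ages and *Gpx1* in old mice were lower in AE, and *Gpx4*, which reduces lipid hydroperoxides within membranes and guards against ferroptosis, was higher in AE. All 3, and *Txnrd1*, are selenoproteins: their catalytic selenocysteine is read from a UGA codon that elsewhere ends translation. This codon is printed here for each of the 4 genes because it ties their output to the selenoprotein synthesis genes described further on. TGA stands in capitals in the coding strand, read 5′ to 3′ from the GRCm38 transcripts of GENCODE M21, with 12 bases on either side or up to the stop codon.

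Gpx1: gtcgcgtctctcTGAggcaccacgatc
Gpx2: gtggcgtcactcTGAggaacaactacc
Gpx4: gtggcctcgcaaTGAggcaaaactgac
Txnrd1: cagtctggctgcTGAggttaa

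These windows are exonic and coding, at chr9:108339439-108339465 (plus strand) for *Gpx1*, chr12:76795244-76795270 (minus) for *Gpx2*, chr10:80054725-80054751 (plus) for *Gpx4* and chr10:82896025-82896045 (plus) for *Txnrd1*. Selenocysteine is residue 47 of 201 in Gpx1, 40 of 190 in Gpx2 and 129 of 253 in the longest annotated form of Gpx4. In Txnrd1 it is residue 498 of 499, the last but one before the true stop. The 3 peroxidases thus carry it within the protein and Txnrd1 at its carboxyl end.

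*Gpx1* (ENSMUSG00000063856, chr9:108338903-108340343, plus strand), the peroxidase found in most tissues, was at 299, 423 and 487 CPM in young ISC, 384, 536 and 333 in old ISC, 290.1, 347 and 176 in young AE and 255, 169 and 84.6 in old AE. The young groups overlapped, while in old mice all 3 AE libraries were below the ISC libraries. AE against ISC was -0.57 on the log2 scale in young mice (SE 0.29, FDR = 0.133) and -1.37 in old mice (SE 0.36, FDR = 0.00769), which is 2.59-fold lower in old AE. Without young AE replicate 2, *Gpx1* was called in young mice as well (-0.90, FDR = 0.0354). *Gpx2* (ENSMUSG00000042808, chr12:76792333-76795554, minus strand) was at 353, 483 and 408 CPM in young ISC, 419.7, 425 and 314 in old ISC, 157, 223 and 95.1 in young AE and 155, 76.9 and 48.6 in old AE. ISC and AE did not overlap at either age. *Gpx2* was 2.62-fold lower in AE of young mice (log2 fold change -1.39, SE 0.31, FDR = 0.00617) and 4.34-fold lower in old mice (-2.12, SE 0.37, FDR = 0.000702). Within young AE, *Gpx2* and *Gpx1* were highest in replicate 2, the AE library with the highest sums of stem cell markers (664 CPM, against 128 to 243 in the other young AE libraries) and proliferation markers (345 against 71.5 to 118 CPM). Whether cells of the crypt in that library bear on *Gpx2* was not tested.

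*Gpx4* (ENSMUSG00000075706, chr10:80047166-80056439, plus strand) was at 23.7, 31.4 and 56.7 CPM in young ISC, 32.2, 39.8 and 24.2 in old ISC, 128, 115 and 167 in young AE and 166, 175 and 139 in old AE. Its AE and ISC libraries were well apart at both ages. AE over ISC was 3.65-fold in young mice (log2 fold change 1.87, SE 0.32, FDR = 0.00189) and 4.75-fold in old mice (2.25, SE 0.21, FDR = 1.08e-05). Of its 50-base words, 34.7% are shared with other genes, among them the pseudogene *Gpx4-ps2*, and since the authors kept uniquely mapped reads its absolute level is less certain than that of the other members. For *Gpx2* this share was 5.97% (*Gpx2-ps1*), for *Sod1* 3.42% (*Gm8566*), and for the remaining 6 members 0%.

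*Txnrd1* (ENSMUSG00000020250, chr10:82833951-82897712, plus strand), which keeps cytosolic thioredoxin reduced with NADPH, was at 250.4, 228 and 303 CPM in young ISC, 214, 198 and 217 in old ISC, 339, 418 and 603 in young AE and 348, 461 and 330.1 in old AE. AE lay above ISC at both ages without overlap. From ISC to AE the log2 fold change was 0.80 in young mice (SE 0.25, FDR = 0.0262) and 0.79 in old mice (SE 0.19, FDR = 0.00485). The call in young mice was lost without any one of young ISC replicates 1 or 2 or young AE replicates 2 or 3, with FDR up to 0.137, while that in old mice held without each library.

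*Nqo1* and *Hmox1* are the members most often read as markers of Nrf2 activity. *Nqo1* (ENSMUSG00000003849, chr8:107388225-107403206, minus strand), which reduces quinones by 2 electrons at once, was at 16.6, 27.5 and 61.6 CPM in young ISC, 34.5, 42.2 and 21.5 in old ISC, 39.4, 61.7 and 186 in young AE and 99.6, 141 and 29.6 in old AE. Its groups overlapped at both ages, and each AE group spread several-fold. AE over ISC was 1.44 on the log2 scale in young mice (SE 0.64, FDR = 0.0889) and 1.40 in old mice (SE 0.47, FDR = 0.0257). This call rests on few libraries: in old mice FDR was 0.0505 to 0.129 without old ISC replicate 1 or 3 or without old AE replicate 1 or 2, and in young mice the log2 fold change was 0.47 without young AE replicate 3 and 2.12 (FDR = 0.0320) without young ISC replicate 3. *Hmox1* (ENSMUSG00000005413, chr8:75093621-75100589, plus strand), which opens haem to release iron, carbon monoxide and biliverdin, had 2, 4 and 10 counts in young ISC, 10, 4 and 1 in old ISC, 7, 11 and 96 in young AE and 6, 26 and 12 in old AE. In CPM these are 0.128, 0.227 and 0.561, then 0.281, 0.216 and 0.0445 in ISC, and 0.572, 0.909 and 1.15, then 0.571, 2.33 and 1.31 in AE. Young ISC replicate 1 and old ISC replicate 3 were at or under the limit of detection, so *Hmox1* was hardly measured in ISC, and AE was above ISC at both ages without overlap. AE over ISC was 1.52 on the log2 scale in young mice (SE 0.70, FDR = 0.0973) and 2.81 in old mice (SE 0.80, FDR = 0.0111), and the latter was lost without old AE replicate 2 (2.21, FDR = 0.0702). Macrophages are rich in *Hmox1*, so their 7 markers are given beside it, and they did not go one way. *Cd68* made up most of their sum in ISC and was at 1.40 to 2.95 CPM in old ISC and 0.448 to 0.981 in old AE. The 5 markers other than *Cd68* and *Lyz2* summed to 0.0445 to 0.168 CPM in old ISC, 0.0951 to 0.327 in old AE, 0 to 0.113 in young ISC and 0.661 to 1.96 in young AE, from 6 counts or fewer per library in all but young AE. Their part in the *Hmox1* values was not tested.

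A fit with the column code as a replicate block pairs ISC and AE libraries. It called 7 members in young mice in place of 5, beside 53.9% of all genes in that fit. It added *Sod1* (0.77 on the log2 scale, FDR = 0.0356) and *Nqo1* (1.34, FDR = 0.000224). In old mice the blocked fit called 9 members, as the fit without the block did, beside 66.3% of all genes.

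Levels of different genes were set side by side only per length, as CPM per kb of exon. Exon length was the union over all annotated transcripts of a gene, which can be longer than its main mRNA. For *Gpx1* and *Gpx2* this union, 1441 and 3222 bases, filled the whole gene span. Their per-length levels may thus be too low. That of *Gpx4* may be too low as well, since 34.7% of its 50-base words are shared with other genes and only uniquely mapped reads were kept. For *Sod2* this share was 21.0% over all its transcripts, and whether reads were lost is not known. The order of genes is therefore less certain. In young ISC the order was *Gpx1* with 279.5 ± 66.4 CPM per kb (SD, n = 3 libraries), then *Gpx2* with 129 ± 20.3, *Cat* with 81.8 ± 42.0, *Sod1* with 65.1 ± 20.1, *Nfe2l2* with 54.8 ± 3.72 and *Txnrd1* with 36.7 ± 5.42. *Nqo1* (22.7 ± 15.1), *Gpx4* (21.6 ± 10.03) and *Sod2* (21.3 ± 3.72) followed together, and *Hmox1* was last with 0.174 ± 0.130 CPM per kb. Among neighbours in this order, the ranges of 3 libraries were apart for *Gpx1* and *Gpx2*, for *Nfe2l2* and *Txnrd1* and for *Sod2* and *Hmox1*, and overlapped for the rest. In old ISC *Gpx1* (289.8 ± 73.6 CPM per kb) and *Gpx2* (119.8 ± 19.5) again led.

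AE had another order. *Cat* led with 410.3 ± 359 CPM per kb in young AE, followed by *Gpx1* (188 ± 60.3), *Sod1* (117 ± 62.8), *Nfe2l2* (115 ± 5.83) and *Gpx4* (79.1 ± 15.7). Its range of 199 to 824 overlapped that of *Gpx1* (122 to 241). In old AE *Cat* was at 396 ± 163 CPM per kb, and its range of 246 to 569 was above that of *Sod1*, next in order with 132 ± 26.1. *Gpx2*, second in ISC, was at 49.2 ± 19.9 CPM per kb in young AE and 29.1 ± 17.2 in old AE, above only *Sod2* and *Hmox1*. The annotated span of *Sod1* and *Sod2* in GENCODE M21 is not that of the count table, so exons were clipped to the latter and the per-length levels of these are less certain.

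**Figure D3:**
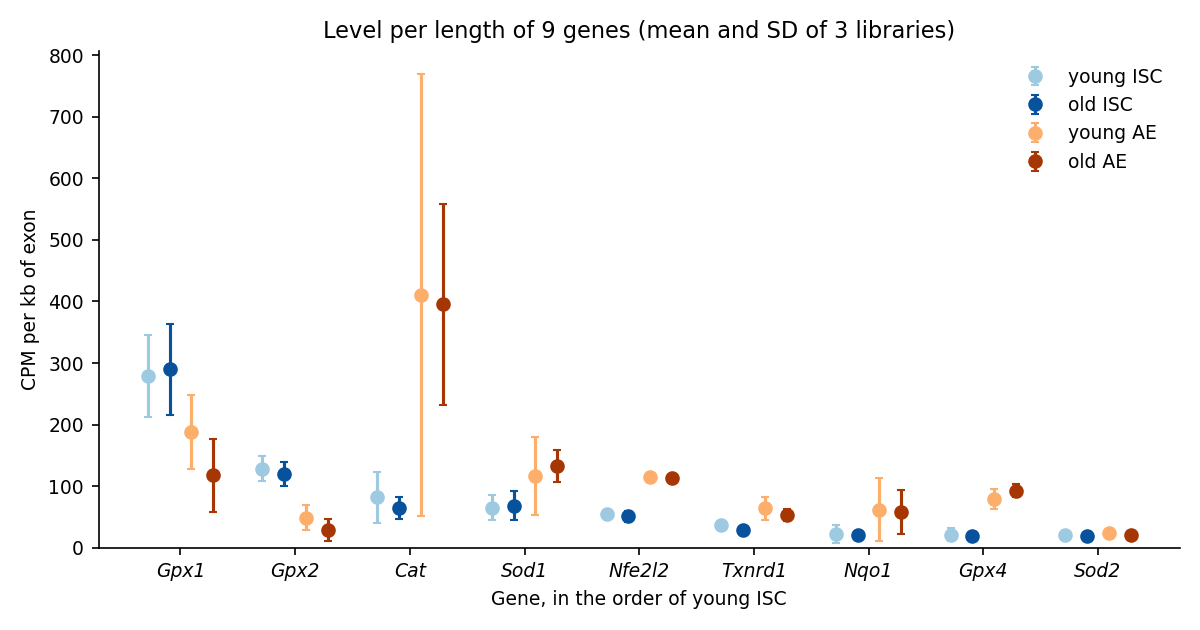
Level per length of 9 genes, in CPM per kb of exon, as means with SD of 3 libraries per group, ordered by young ISC; *Hmox1*, under 1 CPM per kb on average in each group, is left out. *Gpx1* and *Gpx2* lead in both ISC groups, and *Cat* leads in both AE groups with 410.3 and 396 CPM per kb.

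Between ages, no member was called. In ISC, 0 of 10 members and 0% of 15552 genes passed an FDR of 0.05 by edgeR, where 695 genes (4.47%) had an unadjusted P under 0.05 and DESeq2 called 58 genes, none of them a member. In AE, 0 of 10 members and 0% of 16265 genes passed, where 809 genes (4.97%) had an unadjusted P under 0.05 and DESeq2 called 18, again no member. No member had an unadjusted P under 0.05 in either cell type. The median log2 fold change of the members was -0.10 in ISC and -0.06 in AE, beside 0.01 and -0.04 for all genes.

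In ISC, 2 members had a positive and 8 a negative log2 fold change of old over young, between 0.08 (*Sod1*, SE 0.31) and -0.71 (*Hmox1*, SE 0.89). *Txnrd1* alone did not overlap between ages, with 198 to 217 CPM in old against 228 to 303 in young ISC, beside 8.84% of all genes whose groups do not overlap. Its log2 fold change was -0.30 (SE 0.16, FDR = 1.00), and -0.18 without young ISC replicate 3. That of *Cat* was -0.34 (SE 0.34) and became 0.17 without the same library, and *Gpx4* (-0.21), *Nqo1* (-0.10) and *Hmox1* changed sign in the same way. Sums of enterocyte markers overlapped between ages in ISC, with the highest in that library. Marker by marker they were not alike. *Vil1*, *Apoc3*, *Apoa1*, *Apoa4* and *Lct* were lower in each old ISC library than in each young one. *Sis*, *Alpi*, *Fabp1*, *Fabp2*, *Anpep*, *Treh* and *Mttp* overlapped. Sums of goblet and of T cell markers were lower in each old ISC library than in each young one, as given above. The part of these cells in the values by age was not tested.

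In AE the values ranged from -0.74 for *Gpx2* (SE 0.43, FDR = 0.833) and -0.66 for *Gpx1* (SE 0.38, FDR = 0.833) to 0.66 for *Hmox1* (SE 0.62, FDR = 0.864). *Sod2* was the member whose AE groups did not overlap, with 81.6 to 92.6 CPM in old and 93.0 to 109 in young AE, beside 10.9% of all genes. Its log2 fold change was -0.20 (SE 0.14, FDR = 0.835). *Cat* (-0.03, SE 0.55) and *Nqo1* (-0.08, SE 0.64) gave wide errors that came from the spread within each group. Without young AE replicate 3, the deepest library and the one with the highest *Cat*, *Sod1*, *Nqo1* and *Txnrd1* of young AE, the log2 fold change of old over young was 0.98 for *Cat* (FDR = 0.276), 0.74 for *Sod1* (FDR = 0.244), 0.42 for *Gpx4* (FDR = 0.332), -0.89 for *Gpx1* (FDR = 0.351) and -1.003 for *Gpx2* (FDR = 0.344). These 5 then had an unadjusted P under 0.05 and none passed the FDR, beside 0.00673% of 14848 genes that passed. The share of all genes with an unadjusted P under 0.05 was not counted here or without old AE replicate 1. These counts of members thus have no background to stand beside. Without old AE replicate 1, *Gpx1* (-1.07) and *Gpx2* (-1.31) had an unadjusted P under 0.05, with an FDR of 0.814 for both. Both were smaller without young AE replicate 2 (-0.43 and -0.40) or old AE replicate 3 (-0.33 and -0.43).

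**Figure D4:**
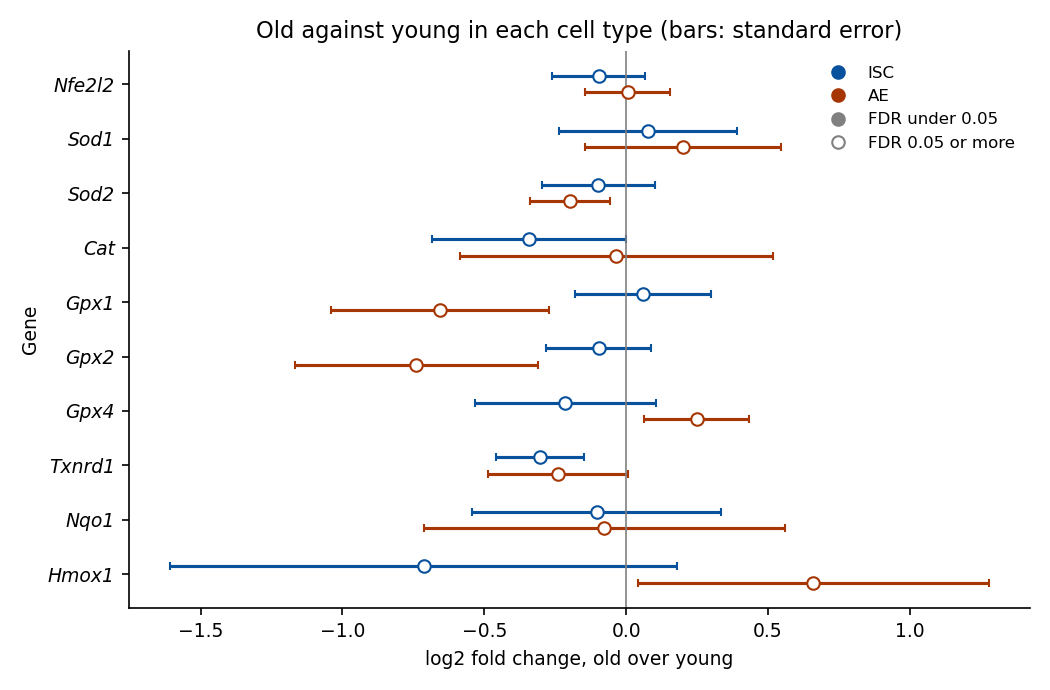
Log2 fold change of old over young for each gene in ISC and in AE, with bars of 1 SE; open points did not pass an FDR of 0.05, and all points are open. Values lie between -0.74 and 0.66, with the widest bars for *Hmox1*, *Nqo1* and *Cat* and narrow ones for *Nfe2l2* and *Sod2*.

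The difference of the age effect between AE and ISC, which is the same contrast as that of the AE to ISC fold between old and young mice, was tested over the 12 libraries. It called 0 of 10 members beside 0.00575% of 17377 genes, a single gene. Its extremes among the members were *Gpx1* with -0.73 (SE 0.51, FDR = 1.00) and *Hmox1* with 1.36 (SE 1.05, FDR = 1.00). *Gpx1*, *Sod1*, *Nqo1* and *Hmox1*, which passed the test between AE and ISC in old but not in young mice, are therefore not shown to differ between the ages in this respect.

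The other genes of these pathways were taken from 10 lists with 93 genes, of which 90 were tested. In young mice 33 were higher and 14 lower in AE (52.2% called, beside 53.1% of all genes), and in old mice 43 were higher and 18 lower (67.8%, beside 64.1%). Without a block the share called was near that of all genes at both ages, and higher calls were 36.7% of the list genes in young and 47.8% in old mice, where all genes gave 27.7% and 30%. The fit with the replicate block called 61 of the 90 in young mice, 45 higher and 16 lower (67.8%, beside 53.9% of all genes in that fit). In old mice it called 69, 47 higher and 22 lower (76.7%, beside 66.3%). All genes tested include ones with few counts, and the lists were chosen with earlier results of these data known. With a filter of 1 CPM in 3 libraries and no block, 64.5% of all genes were called in young and 72.1% in old mice. That filter was not combined with the block, so an excess over genes of like level is not shown. Without the block, the median log2 fold change of the 90 genes was 0.74 in young and 0.55 in old mice. *Gpx8*, *Nox4* and *Cybb* had too few counts to be tested.

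**Figure D5:**
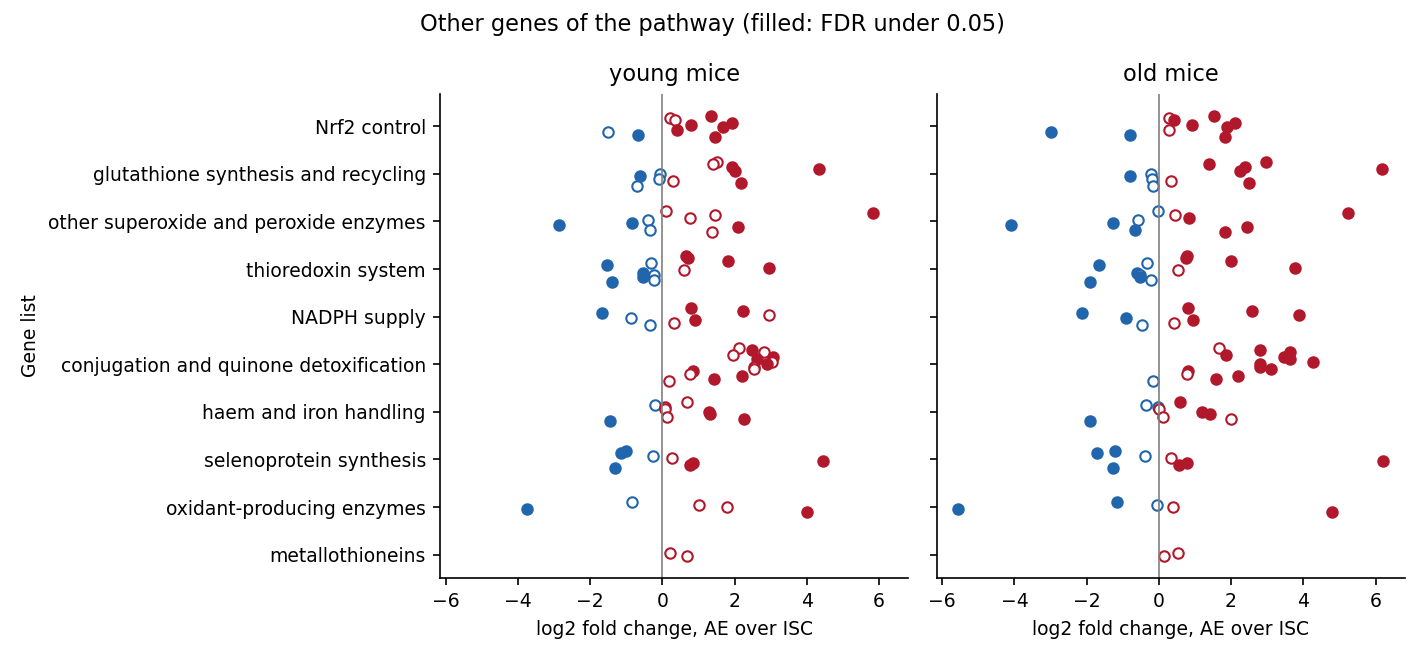
Log2 fold change of AE over ISC for the 90 genes of 10 lists, in young mice on the left and old mice on the right; red is higher and blue lower in AE, and filled points passed an FDR of 0.05. Conjugation and quinone detoxification holds filled points on the right side alone, while the thioredoxin and selenoprotein synthesis lists hold filled points on both sides.

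Of the 10 genes that control Nrf2 or share its role, 6 were higher and 1 lower in AE of young mice, and 6 higher and 2 lower in old mice. *Maff*, a small Maf that pairs with Nrf2, rose most from ISC to AE, from 4.66 ± 1.66 to 17.7 ± 1.71 CPM in young mice (1.93 on the log2 scale, SE 0.28, FDR = 0.000923) and from 5.43 ± 2.62 to 25.0 ± 5.41 CPM in old mice (2.11, SE 0.33, FDR = 0.000305). The largest falls were those of *Rbx1*, a part of the ubiquitin ligase that acts with Keap1, in young mice (-0.67, FDR = 0.00930) and of *Nfe2l3*, a relative of *Nfe2l2*, in old mice (-2.99, FDR = 0.0270). *Nfe2l3* went from 1.06 ± 0.361 CPM in old ISC to 0.145 ± 0.252 CPM in old AE. The latter mean is below the limit of detection of old AE libraries, 0.269 to 0.327 CPM, so the size of this fall is uncertain.

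Glutathione synthesis and recycling had 4 of 11 genes higher and 1 lower in AE of young mice, and 6 higher and 1 lower in old mice. *Ggt1*, which cleaves glutathione outside the cell, rose from 67.2 ± 41.7 to 1362 ± 276 CPM in young mice (4.34 on the log2 scale, SE 0.47, FDR = 0.000291) and from 22.8 ± 17.7 to 1737 ± 178 CPM in old mice (6.18, SE 0.61, FDR = 1.52e-05). *Glrx5*, a mitochondrial glutaredoxin, fell by 0.61 and by 0.81 on the log2 scale. Among other superoxide and peroxide enzymes, 2 of 10 were higher and 2 lower in young mice, and 4 higher and 3 lower in old mice. *Gpx3*, the secreted glutathione peroxidase, rose from 1.58 ± 0.619 to 90.0 ± 37.7 CPM in young mice (5.82, FDR = 0.000110) and by 5.24 on the log2 scale in old mice. *Prdx4*, the peroxiredoxin of the endoplasmic reticulum, fell by 2.87 in young and by 4.10 in old mice, to 4.21 ± 1.59 CPM in old AE.

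In the thioredoxin system, 4 of 12 genes were higher and 4 lower in AE at each age. *Srxn1*, sulfiredoxin, which repairs overoxidised peroxiredoxins and is a known Nrf2 target, rose from 52.3 ± 22.2 to 409 ± 95.9 CPM in young mice (2.96, SE 0.33, FDR = 0.000333) and from 30.8 ± 4.10 to 444 ± 46.6 CPM in old mice (3.78, SE 0.20, FDR = 5.11e-07). The largest falls were of *Sesn3* in young mice (-1.53, FDR = 0.000758) and of *Txnrd3* in old mice (-1.91, FDR = 7.30e-05), so that this reductase stood lower in AE where *Txnrd1* stood higher. For NADPH supply, 3 of 8 genes were higher and 1 lower in young mice, and 4 higher and 2 lower in old mice. *Idh1*, the cytosolic NADP-dependent isocitrate dehydrogenase, rose by 2.22 on the log2 scale in young mice (FDR = 0.00836), and its mitochondrial counterpart *Idh2* fell by 1.66 in young mice (FDR = 0.00103) and by 2.12 in old mice (FDR = 3.52e-05). *Me1*, malic enzyme, had the largest rise in old mice (3.89, SE 0.93, FDR = 0.00457).

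Conjugation and quinone detoxification was the list with calls in 1 direction, with 7 of 15 genes higher and 0 lower in AE of young mice and 12 higher and 0 lower in old mice, and medians of 2.47 and 2.79 on the log2 scale. Its largest rises were of the glutathione S-transferases *Gsta1* in young mice (3.07, SE 0.97, FDR = 0.0272) and *Gsta3* in old mice (4.28, SE 0.83, FDR = 0.00130). They belong to a multigene family, and how far its members share reads was not measured. Haem and iron handling had 3 of 9 genes higher and 1 lower at each age. *Slc40a1*, the iron exporter ferroportin, rose most in young mice (2.26, SE 0.70, FDR = 0.0260) and *Ftl1*, ferritin light chain, in old mice (1.43, SE 0.23, FDR = 0.000377). *Tfrc*, the transferrin receptor, fell by 1.47 on the log2 scale in young and by 1.92 in old mice, from 417 ± 76.7 CPM in old ISC to 116 ± 25.5 in old AE.

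Selenoprotein synthesis, on which the 4 selenoproteins among the members depend, had 3 of 8 genes higher and 3 lower in AE at each age. *Selenop*, which encodes the secreted selenium carrier rather than a synthesis factor, rose from 276 ± 176 to 6069.7 ± 1562 CPM in young mice (4.45, SE 0.52, FDR = 0.000368) and by 6.22 on the log2 scale in old mice. *Trnau1ap* fell by 1.32 in young mice and *Pstk*, a kinase that acts on the tRNA of selenocysteine, fell by 1.71 in old mice. Of 5 tested oxidant-producing enzymes, *Xdh*, xanthine dehydrogenase, rose in AE by 4.01 and 4.78 on the log2 scale. *Nox1*, the superoxide-producing NADPH oxidase of the gut epithelium, fell by 3.75 in young and by 5.56 in old mice. It went from 4.31 ± 2.99 and 7.73 ± 8.18 CPM in ISC to 0.388 ± 0.257 and 0.182 ± 0.315 CPM in AE. The old AE mean is below the limit of detection there (0.269 to 0.327 CPM), so the size of the fall in old mice is uncertain. Neither metallothionein, *Mt1* nor *Mt2*, was called.

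Between ages, none of the 90 list genes was called in either cell type or in the difference of age effects. In ISC 4 of 90 had an unadjusted P under 0.05, near the 4.47% of all genes, and were lower in old mice: *Ggt1* (-1.56), *Srxn1* (-0.76), *Selenop* (-1.29) and *Xdh* (-0.60 on the log2 scale, FDR = 1.00 for each). In AE it was *Maff* alone (0.51, FDR = 0.833).

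Correlations over the 12 libraries share library and scaling, and for the members that differed between cell types they describe mainly that split. By Pearson's r of log2 CPM over 12 libraries and 12642 genes, *Nfe2l2* was most like *Enpep* (0.995), *Sult1b1* (0.994) and *Gna11* (0.994), and *Cat* was most like *Hsd17b4* (0.998), *Aldh3a2* (0.998) and *Hsd17b11* (0.996). *Gpx4* was most like *Ms4a10* (0.995), *Cmbl* and *Tmem98*, and *Gpx2* like *Psmc3ip* (0.990), *Cmss1* and *Bbs7*. For *Nqo1* the most alike were *Hadhb* (0.981), *Acadl* and *Mgst1*, for *Sod1* *Psmd4* (0.980), *Isoc2a* and *Ptgr1*, and for *Txnrd1* *Nadk* (0.979), *Naa60* and *Clptm1l*. *Gpx1* was most like *Rilpl2* (0.958), *Lgals2* and *Cpq*, and *Sod2* like *Mmadhc* (0.952), *Hras* and *Rgs13*.

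Because Nrf2 acts through antioxidant response elements, the RefSeq promoters of GRCm38.p6 (250 bases before to 50 after a gene's start) were searched on both strands for the core TGACNNNGC, with no other motif searched. A promoter sequence was given for 9 members, all but *Hmox1*, and 3 of them held it, beside 14.0% of 27025 genes and 12.4% of 32851 promoter sequences. Of the genes in the 10 lists, 15 of 80 with a promoter sequence held it. The matches are printed in capitals within 10 bases on either side, each read along the strand of its gene. *Nfe2l2* holds the motif as searched, and *Txnrd1* and *Sod1* hold its reverse complement.

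Nfe2l2: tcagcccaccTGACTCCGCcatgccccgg
Txnrd1: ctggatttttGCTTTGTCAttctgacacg
Sod1: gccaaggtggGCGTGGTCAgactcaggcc

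They lie at chr2:75704885-75704913 for *Nfe2l2*, chr10:82859104-82859132 for the second of 3 annotated starts of *Txnrd1* and chr16:90220696-90220724 for *Sod1*, and the motif begins 240, 92 and 56 bases before the start. *Cat*, *Gpx1*, *Gpx2*, *Gpx4*, *Nqo1* and *Sod2* hold no such letters in these windows. Of the 3 genes with a match, *Nfe2l2* and *Txnrd1* were called higher in AE at both ages and *Sod1* in old mice. *Cat* and *Gpx4*, the members with the largest rises among those called at both ages, have none. Of the others without a match, *Nqo1* was called higher in old mice, *Gpx2* lower at both ages and *Gpx1* lower in old mice. *Sod2* was not called. Sequence outside these windows was not searched. A match of these letters describes the sequence and no binding was measured.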

How the data were processed

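The authors trimmed reads of sorted ISC and AE with Trim Galore 0.4.4, mapped them to GRCm38 with HISAT2 2.1.0, and used SeqMonk to count the uniquely mapped ones per gene, over exons of merged transcripts. They deposited raw counts for 34245 genes (46 names occur more than once), which were used here. A deposited table of differentially expressed genes holds the authors' own comparisons and no member, and was not used. Libraries were directional. The annotation release and the strand setting used for these counts are not given in the sources used here.

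Each column was assigned to the age and cell type that its own name spells, since 8 of 12 titles carry a code that disagrees with their other words. Replicate numbers follow column order. ISC and AE libraries share codes, and those of the same code deviated together from their group means (r = 0.213 to 0.431 in 6 of 6 pairs, -0.376 to 0.110 in 12 other pairs), so a replicate block by code was fitted as an alternative.

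In R 4.3.3, genes whose counts summed to at least 10 in a comparison were TMM-scaled and tested with edgeR 4.0.16 (quasi-likelihood, Benjamini-Hochberg over all genes, FDR threshold 0.05), after tests on simulated data. Alternatives were DESeq2 1.42.0, limma-voom (limma 3.58.1), RLE and upper-quartile scaling, 2 filters, a joint fit, the block and leaving out each library. The text gives the 10 members in full and, per list and comparison of AE with ISC, the called genes with the largest rise and fall. The members and lists were chosen with earlier results of these data known. Exon lengths are from GENCODE M21, as the union over the transcripts of a gene. The limit of detection was fixed at 3 counts in every library. Its value in CPM follows the depth of the library (11893817 to 110794420 counts) and its scaling.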

Additional observations from a re-analysis of the deposited data

How the results depend on the processing

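Between AE and ISC, the count of called members was 5 or 6 in young mice under the other tools, scalings, filters and the joint fit. In old mice it was 8 or 9, where *Hmox1* could not be tested under a filter of 1 CPM in 3 libraries. Of all genes, these settings called 43.8% to 64.5% in young and 53.4% to 72.1% in old mice. The replicate block gave 7 in young mice, beside 53.9% of all genes. It added *Sod1* and *Nqo1* and changed no other call of a member. Leaving out each library in turn gave 3 to 6 in young mice, beside 42.6% to 51.8% of all genes. The 3 (*Nfe2l2*, *Gpx2* and *Gpx4*) came without young ISC replicate 1 or 2, where 45.8% and 42.6% of all genes were called. In old mice it gave 6 to 9, beside 57.9% to 64.8% of all genes. The counts of 0 between ages and in the difference of age effects were 0 under every alternative, the block in the last included. At most 0.373% of all genes were called in any of these fits. No called member changed direction. Single calls that depended on the tool were *Nqo1*, called in young mice by DESeq2 (FDR = 0.0306) and not called in old mice by limma-voom (FDR = 0.0676) or the joint fit (FDR = 0.0646), and *Hmox1*, called in young mice by limma-voom (FDR = 0.0382). Upper-quartile scaling moved the median log2 fold change of all genes between AE and ISC in young mice from 0.15 to 0.028, and no member's direction in that comparison depended on it.

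Directions that changed belong to values that passed no test, from near 0 to -0.71 (*Hmox1*, old over young in ISC), and the cause was not tested. Old over young was 0.039 for *Nqo1* in ISC and 0.33 for *Cat* in AE under limma-voom, and for *Nfe2l2* in AE -0.0099 with upper-quartile scaling, -0.0031 with a filter of 1 CPM in 3 libraries and -0.012 in the joint fit. AE over ISC of *Sod2* in old mice was 0.053 by DESeq2, 0.053 with RLE scaling, 0.012 with that filter and 0.043 in the joint fit. Leaving out each library, old over young in ISC ranged from -0.59 to 0.17 for *Cat*, -0.17 to 0.22 for *Gpx1*, -0.20 to 0.0375 for *Gpx2*, -0.46 to 0.22 for *Gpx4*, -1.24 to 0.056 for *Hmox1*, -0.23 to 0.0042 for *Nfe2l2*, -0.44 to 0.57 for *Nqo1*, -0.16 to 0.34 for *Sod1* and -0.25 to 0.058 for *Sod2*. In AE it ranged from -0.40 to 0.98 for *Cat*, -0.033 to 0.053 for *Nfe2l2*, -0.56 to 0.85 for *Nqo1*, -0.034 to 0.74 for *Sod1* and -0.41 to 0.026 for *Txnrd1*, and AE over ISC of *Sod2* in old mice from -0.19 to 0.11. The upper ends in AE, but for *Nfe2l2*, came without young AE replicate 3. Depth limits *Hmox1* most, with 1 to 10 counts per ISC library.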
